A study of Homo sapiens with 8 samples.

Results

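The 39 genes described here are interferon-stimulated genes, a fixed list of genes that human cells transcribe when type I or type III interferon binds its receptor. They were taken by symbol from the 58735 genes of the raw count table, and all 39 were found there (DDX58 is the gene of RIG-I). The 8 RNA-seq libraries came from EPC2-hTERT, a line of human esophageal epithelium immortalised with telomerase. Cells of both groups were kept for 2 days on porous inserts (0.4 µm), then given 1.8 mM calcium for 5 days and lifted to an air-liquid interface, where such cells stratify. The 4 miR-155OE libraries came from a stable line made by lentiviral overexpression of miR-155-5p, and the 4 CTRL libraries from cells labelled only as control. Whether the CTRL cells carry a lentiviral vector is not given in the sources used here, so an effect of the microRNA and an effect of viral delivery cannot be told apart. The labels do not say that replicates came from separate cultures, so p-values measure only the spread between these libraries, which may be technical.

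Interferons signal through receptor pairs to the kinases JAK1 and TYK2, which phosphorylate STAT proteins, STAT2 among them. With IRF9 they form ISGF3, a complex that binds the interferon-stimulated response element in promoters and switches on a broad set of antiviral genes. Cells that sense foreign RNA or DNA, such as a viral genome, can start this programme themselves through RIG-I, MDA5 or cGAS and STING, and a lentiviral vector enters cells as RNA that is copied to DNA. The comparison addressed whether an interferon state was present in these cultures and whether it differed between the groups.

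The response element is shown here because it is the site that this complex binds. A match of letters does not show which protein binds, and binding was not measured. Its core letters GAAANNGAAA were searched on both strands, overlapping matches included, in RefSeq promoters (GRCh38.p14) from 250 bases before to 50 after each start. Of the 39 listed genes 31 had a promoter in that table, and in 22 of these (71.0%) the letters were found, against 1195 of all 27305 genes in the table (4.38%) and 1255 of its 35116 promoters, all of the same length (3.57%). Windows of 30 bases follow, read 5′ to 3′ on the gene's strand with the match in capitals. The first 4 belong to genes that were nearly silent in these cultures, and the last 3 to genes that were read well. RSAD2 and IFIT1 carry the letters on the other strand, so that their reverse complement is printed.
RSAD2: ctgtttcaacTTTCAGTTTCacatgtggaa
IFIT1: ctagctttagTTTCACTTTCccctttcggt
BST2: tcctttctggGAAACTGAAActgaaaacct
IFI44L: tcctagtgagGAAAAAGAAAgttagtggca
SAMD9: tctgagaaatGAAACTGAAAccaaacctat
LGALS3BP: gtggtttctgGAAATCGAAAgtagactctt
OAS3: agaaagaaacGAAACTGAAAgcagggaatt
These windows lie at chr2:6877622-6877651 on the plus strand (RSAD2), chr10:89392497-89392526 on the plus strand (IFIT1), chr19:17405741-17405770 on the minus strand (BST2), chr1:78620365-78620394 on the plus strand (IFI44L), chr7:93118096-93118125 on the minus strand (SAMD9), chr17:78979962-78979991 on the minus strand (LGALS3BP) and chr12:112938321-112938350 on the plus strand (OAS3). Each lies upstream of the annotated start. The IFI44L window recurs letter for letter in the same promoter at chr1:78620274-78620303. Levels overlapped between genes with and without the letters. The 22 genes with a match ran from 0.000618 to 27.0 RPKM (median 0.504), and the 9 without one from 0.00334 to 4.04 RPKM (median 0.171). A difference in level was not tested.

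The counts of each library summed to 34131130 to 52746852 in CTRL and 33443635 to 40589679 in miR-155OE, where 3 reads correspond to 0.0573 to 0.0901 CPM (reads scaled to a common library size with TMM factors). Mitochondrial genes took 1.23% to 2.78% of counts in CTRL and 1.01% to 2.92% in miR-155OE. All 10 squamous epithelial markers were read in both groups, summing to 62633 to 73030 CPM in CTRL and 56232 to 69109 CPM in miR-155OE. Abundant keratins dominate that sum, and 2 of the 10 fell with the replicate block, a term for the shared replicate number: KRT4 from 95.4 to 17.3 CPM on average, without overlap (adjusted p = 0.00696), and KRT13 from 11.4 to 2.96 CPM (0.0185). Of 11 leukocyte markers, CD4, CD163, IL3RA and CLEC4C had 0 reads in all 8 libraries and the list summed to 7.99 to 10.1 CPM in CTRL and 9.21 to 16.2 CPM in miR-155OE. Most of that was CD14, at 8.71 and 12.0 CPM on average, which rose with the block (log2 fold change 0.44, adjusted p = 0.0239). ITGAM, at 0.433 and 0.718 CPM on average, was higher without overlap but passed neither fit (adjusted p = 0.228 on group alone, 0.170 with the block). Of 7 fibroblast markers COL1A2, COL3A1, DCN and LUM had 0 reads in all 8, and the list summed to 92.8 to 145 CPM in CTRL and 98.2 to 221 CPM in miR-155OE. Nearly all of it was COL1A1, which also rose with the block (0.40, adjusted p = 0.0451). Of 4 endothelial markers PECAM1 and CDH5 had at most 1 read in any library. That list summed to 1.87 to 2.99 CPM in CTRL and 1.37 to 2.83 CPM in miR-155OE. KRT4, KRT13, CD14 and COL1A1 did not pass on group alone (adjusted p = 0.0745 to 0.322), and the part of these markers in the other results was not tested. The host gene MIR155HG and the hairpin gene MIR155 had 0 reads in every library, so the counts gave no check of the overexpression.

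The interferon-stimulated genes were mostly low or silent in both groups. Levels between genes are compared in RPKM, which is CPM per kilobase of the deposited gene length. Averaged over the 8 libraries, 12 of the 39 genes (30.8%) lay at or below 0.1 RPKM and 15 (38.5%) between 0.1 and 1. Another 9 (23.1%) lay between 1 and 10, and 3 (7.69%) above 10. Of 19951 protein-coding genes 38.6% lay at or below 0.1 RPKM, 13.6% between 0.1 and 1, 30.7% between 1 and 10, and 17.1% above 10. The list thus held a smaller share at or below 0.1 RPKM than protein-coding genes, and a larger share between 0.1 and 1. The median was 0.376 RPKM for the listed genes and 0.762 RPKM for protein-coding genes. Together the 39 genes took 0.0376% to 0.0428% of all counts in CTRL and 0.0377% to 0.0454% in miR-155OE. SAMD9, LGALS3BP and OASL alone held 61.0% to 69.6% of those reads in each library, so the total says little of the other 36.

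**Figure D1:**
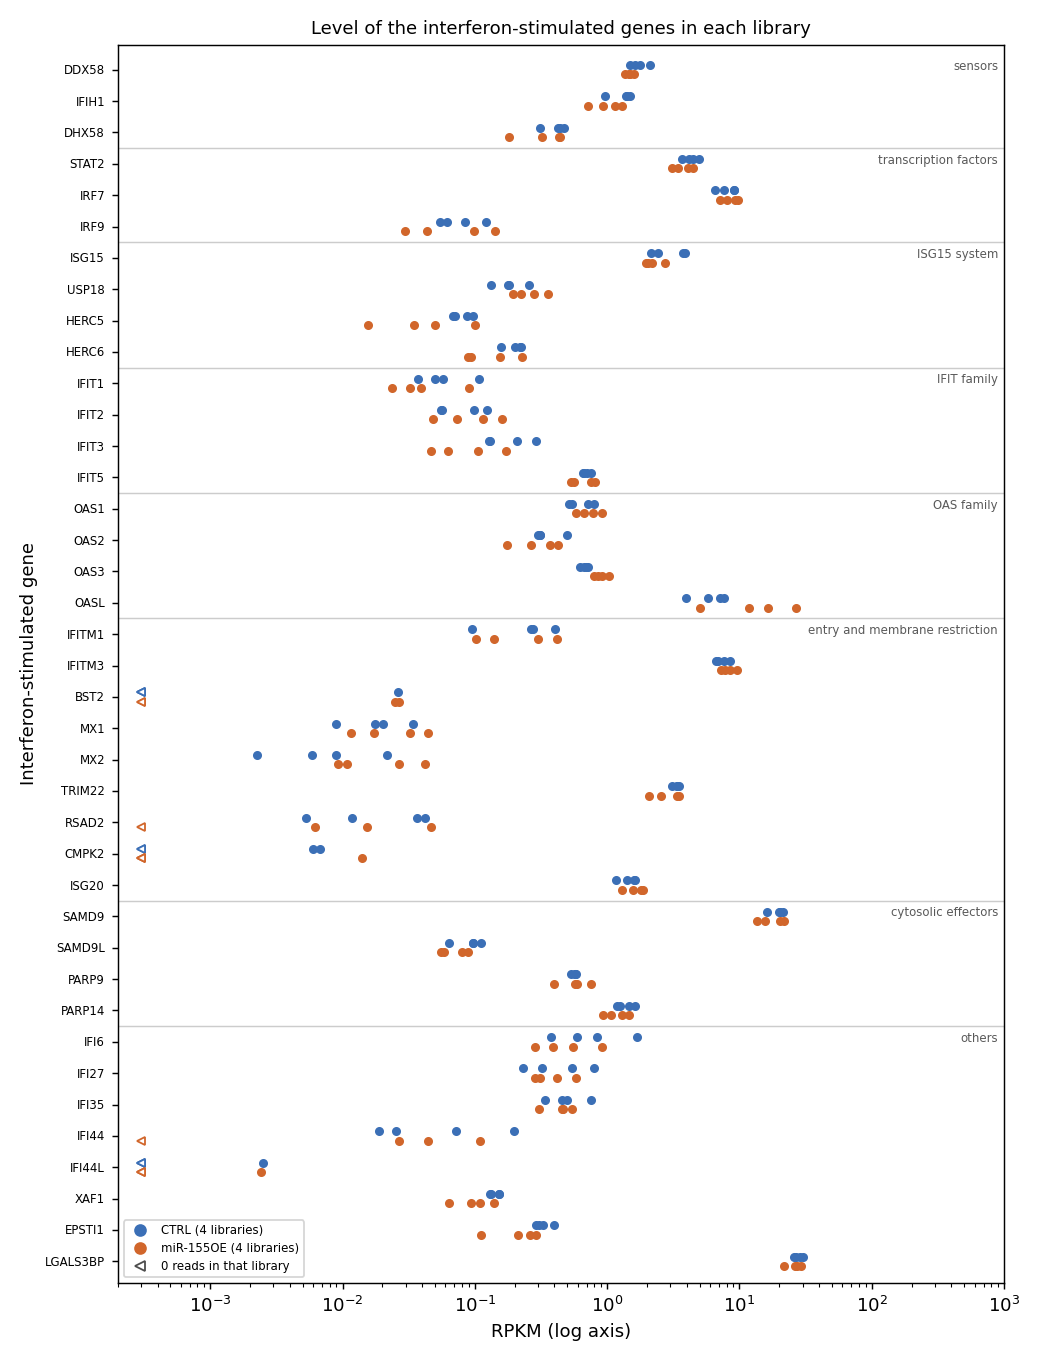
RPKM (log axis) of the 39 interferon-stimulated genes in each of the 4 CTRL and 4 miR-155OE libraries, ordered by role, with open triangles at the left edge for libraries with 0 reads. Most genes lie below 1 RPKM in both groups, SAMD9 and LGALS3BP lie above 10 RPKM in all 8 libraries, and BST2, CMPK2 and IFI44L have 0 reads in several libraries of both groups.

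The silent genes included several that are used as the plainest signs of interferon exposure. IFI44L, often read as a marker of interferon exposure, had 1 read in CTRL replicate 4, 1 in miR-155OE replicate 3 and 0 in the other libraries. BST2, the tetherin protein that holds budding virions at the cell surface, had 1 read in CTRL replicate 1 and 1 each in miR-155OE replicates 1 and 2. CMPK2, a mitochondrial nucleotide kinase, had 1 read each in CTRL replicates 2 and 4 and 2 in miR-155OE replicate 1. Neither group stood above the other in these counts, which lie at or under 3 reads in every library. RSAD2, which encodes the antiviral enzyme viperin and is the neighbour of CMPK2, had 6, 7, 3 and 1 reads in CTRL replicates 1 to 4 and 1, 8, 3 and 0 in miR-155OE replicates 1 to 4. MX1, a dynamin-like GTPase that blocks viral ribonucleoproteins, had 3 to 10 reads in CTRL and 4 to 14 in miR-155OE. IFIT1, which binds RNA lacking a host-type cap, had 9 to 17 reads in CTRL and 4 to 15 in miR-155OE. IFI44 had 2 to 14 and 0 to 8 reads, and the groups overlapped for MX1, IFIT1, IFI44 and RSAD2 alike. MX2, which restricts HIV-1 at the nuclear pore, had 1, 4, 4 and 11 reads in CTRL and 4, 5, 14 and 20 in miR-155OE. It was higher in miR-155OE within 4 of 4 same-numbered pairs, at a depth too low for the low-count filter. These 8 genes were filtered out before testing for low counts, and together they had 22 to 49 reads per library.

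Interferon itself was hardly read. Of 10 interferon genes 7 had 0 reads in all 8 libraries (IFNA1, IFNA2, IFNW1, IFNL1, IFNL2, IFNL3 and IFNG), which allows up to 0.0573 to 0.0901 CPM per library. IFNB1, the interferon that virus-sensing cells make first, had 1, 1, 6 and 0 reads in CTRL and 1, 4, 5 and 0 in miR-155OE. IFNK, the interferon of keratinocytes, had at most 1 read in any library. IFNE, the epithelial interferon that is expressed without infection, was the only one with enough reads to test. It had 17, 31, 71 and 27 reads in CTRL and 19, 16, 21 and 16 in miR-155OE, and its log2 fold change of −0.82 did not pass (SE 0.33, adjusted p = 0.197). The interferon-induced chemokines CXCL9 and CXCL11 had 0 reads in all 8 libraries and CXCL10 had 1 read in all. Among the receptors, IFNAR1 averaged 53.8 ± 2.01 CPM (SD, n = 4) in CTRL against 47.0 ± 2.51 CPM in miR-155OE, without overlap but also without passing (log2 fold change −0.20, SE 0.06, adjusted p = 0.118). IFNAR2 was at 38 to 56 reads per library (log2 fold change −0.05, adjusted p = 0.932). In GENCODE release 29 AP000295.1, a further gene on the same strand that itself had at most 1 read, holds 44.2% of its exon bases and 38.1% of those of the lambda receptor chain IL10RB (3 to 6 reads). Genes on either strand overlap 83.2% of the exon bases of IFNAR2. How reads in such overlaps were assigned is not given in the sources used here, so both levels are uncertain.

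Between the groups, none of the 31 tested genes passed the test on group alone in either direction (edgeR quasi-likelihood, Benjamini-Hochberg adjusted p under 0.05 over 15135 genes), where 2.17% of all tested genes were called higher and 1.05% lower. At an unadjusted p under 0.05, OASL and OAS3 were higher and none was lower, against 10.7% and 8.66% of all genes. The same-numbered libraries of the groups deviate together for numbers 1, 2 and 4. Number 3 is no clear pair, since each of its libraries correlated more with number 4 of the other group. The fit was repeated with the replicate number as a blocking factor. With it OASL and OAS3 rose and none fell, against 7.43% of all genes called higher and 5.17% lower. At an unadjusted p under 0.05 the block gave the same 2 genes higher and 7 lower, against 14.9% and 13.4%. DESeq2 called OAS3 alone (5.13% of all genes higher, 2.95% lower) and limma-voom none (2.13% and 1.20%).

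The 31 log2 fold changes ran from −0.96 (IFIT3) to 1.29 (OASL), with a median of −0.20, against −0.01 over all genes. In all, 22 of the 31 (71.0%) lay below 0, against 51.3% of all genes. OAS3 was the only one whose groups did not overlap, in the higher direction, and none did so in the lower direction, against 6.16% and 5.25% of all genes. Within same-numbered pairs 6 were higher in 4 of 4 and 8 were lower in 4 of 4, against 18.8% and 16.9% of all genes. The count higher in all pairs is thus near its background, whereas the count lower in all pairs and the median lie on the lower side without any gene having fallen by the test. The precision differs widely between genes: the 95% intervals span 0.405 to 2.31 on the log2 scale, with a median width of 1.19. For IRF9 and IFITM1, both thinly read, the interval reached past a log2 fold change of 1 in each direction (−1.16 to 1.02 and −1.26 to 1.06). In a bulk culture fewer cells making an RNA and less RNA per cell cannot be told apart.

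**Figure D2:**
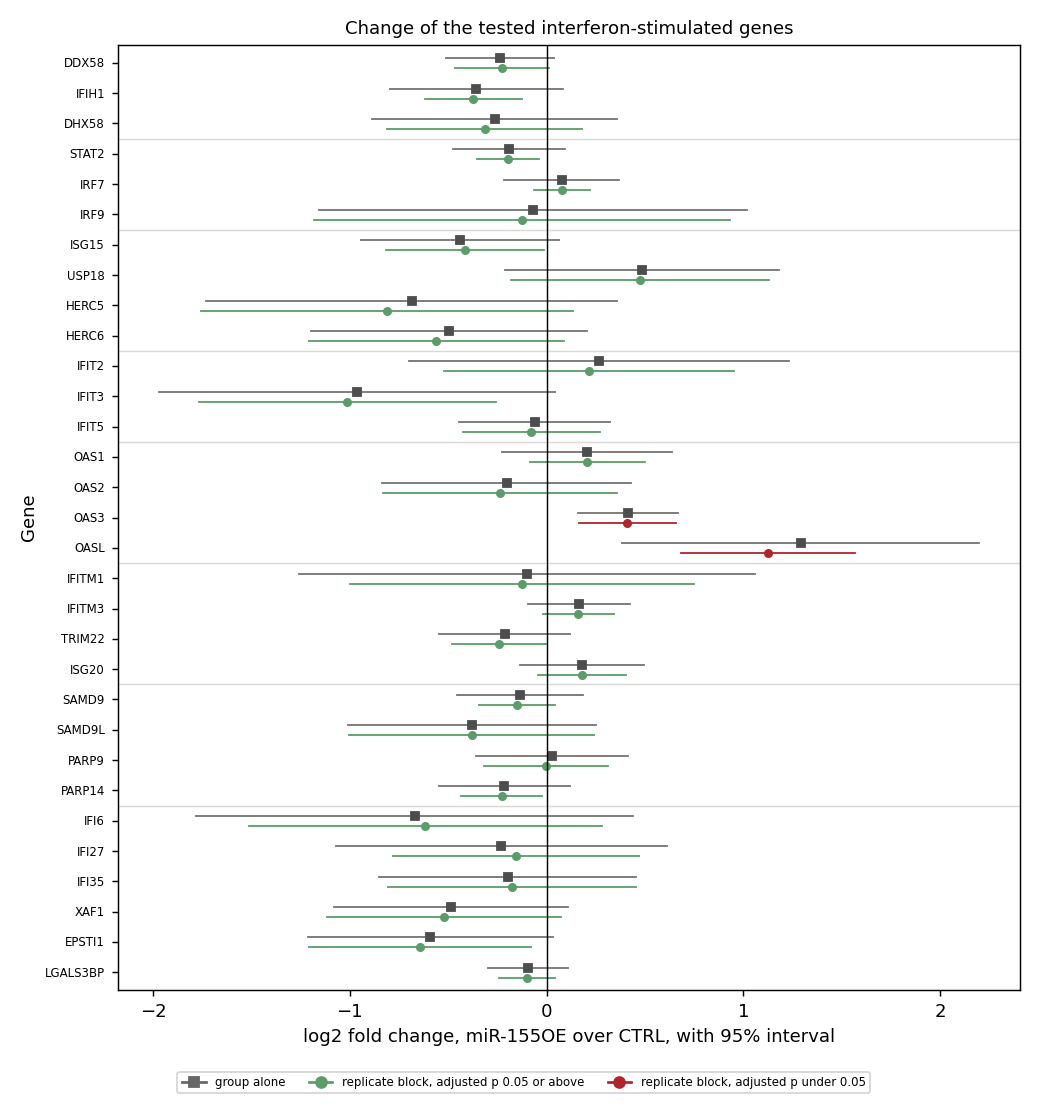
Log2 fold change of miR-155OE over CTRL with its 95% interval for the 31 tested interferon-stimulated genes, from the fit on group alone (squares) and from the fit with the replicate block (circles, red where the adjusted p is under 0.05). OAS3 and OASL are the only red circles, and 22 of the 31 squares lie left of 0.

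The OAS family held both genes that rose with the block. These 2 of the 31 tested genes are near the share of all genes called higher with it (7.43%). OAS proteins are switched on by double-stranded RNA and make a nucleotide second messenger. OASL has lost that activity and instead carries ubiquitin-like domains and binds RIG-I. OAS1, OAS3 and OAS2 lie side by side on the long arm of chromosome 12 (GRCh38, 112906777 to 113011723), and OASL lies further along at 121019111 to 121039242. OASL was read at 20.4, 13.8, 25.0 and 26.9 CPM in CTRL replicates 1 to 4 and at 41.4, 17.5, 94.8 and 57.5 CPM in miR-155OE replicates 1 to 4. Replicates 1, 3 and 4 of miR-155OE lay above all CTRL libraries, whereas miR-155OE replicate 2 lay inside the CTRL range. The means were 21.5 ± 5.84 and 52.8 ± 32.5 CPM, or 6.12 and 15.0 RPKM, so OASL was also the most abundant of the 4 per length. Its log2 fold change was 1.29 (SE 0.41, adjusted p = 0.115) on group alone and 1.13 (SE 0.20, adjusted p = 0.00764) with the block. Within pairs the difference in log2 CPM was 1.01, 0.34, 1.90 and 1.08 for numbers 1 to 4. Without miR-155OE replicate 2 the test on group alone was passed (1.58, adjusted p = 0.00930), and OASL was then the only one of the list called, against 4.85% of all genes called higher and 3.39% lower. The same held with no low-count filter (1.29, adjusted p = 0.0160), against 2.22% and 1.11%. Without miR-155OE replicate 3, the library with the highest value, the log2 fold change was 0.85 (adjusted p = 0.308). The block kept the call when any 1 number was left out (0.85 to 1.36, adjusted p = 0.00157 to 0.0425). The authors' deposited table gives 1.30 with an adjusted p of 0.110.

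OAS3 changed less but more evenly. It was read at 5.95, 5.67, 5.14 and 5.50 CPM in CTRL and at 7.00, 8.59, 7.50 and 6.54 CPM in miR-155OE, so every miR-155OE library lay above every CTRL library. The means were 5.56 ± 0.340 and 7.41 ± 0.881 CPM. The log2 fold change was 0.41 (SE 0.11, adjusted p = 0.0756) on group alone, and with the block it was also 0.41 with an adjusted p of 0.0388. Leaving out any 1 replicate number ended the blocked call (adjusted p = 0.0783 to 0.106). The authors' deposited table gives 0.42 with an adjusted p of 0.0258. OAS1 was at 2.69, 3.91, 2.56 and 3.53 CPM in CTRL and 2.85, 4.56, 3.33 and 3.86 CPM in miR-155OE, higher in 4 of 4 pairs but with overlapping groups. OAS2 was at 3.11, 1.88, 1.95 and 1.93 CPM and at 1.65, 2.66, 1.09 and 2.30 CPM, higher in 2 pairs and lower in the other two. Neither OAS1 nor OAS2 passed either fit.

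**Figure D3:**
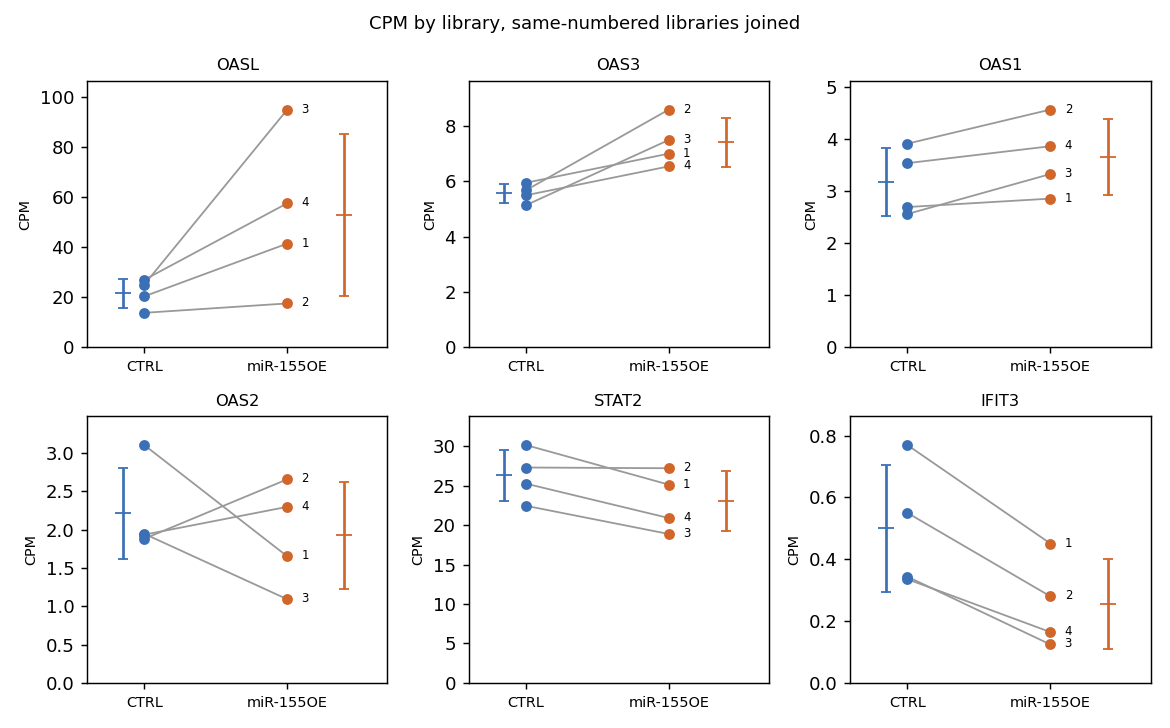
CPM of OASL, OAS3, OAS1, OAS2, STAT2 and IFIT3 in each library, with lines joining the CTRL and miR-155OE libraries of one number and bars for mean ± SD (n = 4). All 4 lines rise for OASL, OAS3 and OAS1 and fall for IFIT3, and the OAS3 groups do not overlap.

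The sensors of viral RNA were read at moderate levels and none of the 3 passed either fit. DDX58, whose product RIG-I binds short double-stranded RNA with a triphosphate end, was at 9.17, 7.09, 6.51 and 7.66 CPM in CTRL and 6.94, 6.41, 6.48 and 5.97 CPM in miR-155OE. It was lower in 4 of 4 pairs with overlapping groups, and its log2 fold change was −0.24 (SE 0.12, adjusted p = 0.332). IFIH1, the gene of MDA5, the sensor of long double-stranded RNA, was at 7.07, 7.58, 4.93 and 7.22 CPM and at 4.72, 6.63, 3.65 and 5.88 CPM, also lower in 4 of 4 pairs. DHX58, the regulator LGP2, was at 1.58 and 1.31 CPM on average and lower in 2 pairs. All 3 fold changes were below 0.

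Of the transcription factors, STAT2 was at 30.2, 27.3, 22.5 and 25.3 CPM in CTRL and 25.2, 27.2, 18.9 and 20.9 CPM in miR-155OE. It was lower in 4 of 4 pairs, by very little for number 2, and the groups overlapped (log2 fold change −0.19, SE 0.13, adjusted p = 0.467, and 0.0991 with the block). The block without number 2 did call it (−0.26, adjusted p = 0.0476). IRF7, which drives the interferon-alpha genes, was among the best read of the list at 24.1, 23.8, 20.2 and 17.0 CPM in CTRL and 25.7, 24.2, 21.2 and 18.6 CPM in miR-155OE. The pairs differed more between numbers than within them, and the log2 fold change was 0.08 (SE 0.13, adjusted p = 0.805). IRF9, the DNA-binding part of ISGF3, was listed with only 4 to 24 reads per library, or 0.0792 RPKM, whereas STAT2 stood at 4.04 RPKM. GENCODE release 29 places 48.4% of the exon bases of IRF9 under AL136295.5, a gene on the same strand that had 0 to 17 reads itself. The IRF9 level is therefore uncertain for the same reason as that of IFNAR2.

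The ISG15 system attaches the ubiquitin-like protein ISG15 to other proteins (HERC5, HERC6) and removes it again (USP18), and none of its 4 genes passed. ISG15 was at 3.64, 3.50, 2.00 and 2.30 CPM in CTRL and 2.58, 1.90, 1.86 and 2.05 CPM in miR-155OE. The 2 highest values were those of CTRL replicates 1 and 2, and CTRL replicates 3 and 4 lay among the miR-155OE libraries (log2 fold change −0.44, SE 0.23, adjusted p = 0.329). HERC5, the main human ligase for ISG15, was at 0.414, 0.463, 0.325 and 0.335 CPM and at 0.240, 0.476, 0.0745 and 0.164 CPM. Here miR-155OE replicate 2 was the highest of the 8, and the log2 fold change was −0.69 (SE 0.47, adjusted p = 0.476). USP18, which also blocks the interferon receptor, was at 0.400 ± 0.110 and 0.560 ± 0.153 CPM and higher in 4 of 4 pairs. HERC6 was at 1.16 ± 0.172 and 0.819 ± 0.376 CPM.

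IFIT proteins bind viral RNA and stop its translation, and their 4 genes stand together on chromosome 10 (89283694 to 89421001). IFIT3 had the lowest fold change of the list, at 0.769, 0.550, 0.344 and 0.335 CPM in CTRL and 0.451, 0.280, 0.124 and 0.164 CPM in miR-155OE. It was lower in 4 of 4 pairs while the groups overlapped. The log2 fold change was −0.96 (SE 0.45, adjusted p = 0.282) and −1.01 with the block (adjusted p = 0.0801), on 5 to 26 reads per library. IFIT2 was at 0.342 and 0.409 CPM on average and IFIT5 at 2.78 and 2.67 CPM, with overlapping groups. Of the family only IFIT5 exceeded 0.5 RPKM.

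The role group of viral entry and membranes, which also took in genes such as CMPK2 and ISG20, split into silent and expressed genes. IFITM3, which stops viruses in endosomes, was at 10.3, 11.4, 8.94 and 9.31 CPM in CTRL and 11.4, 13.0, 10.4 and 9.85 CPM in miR-155OE, or 7.41 and 8.30 RPKM. It was higher in 4 of 4 pairs by small steps and did not pass (log2 fold change 0.16, SE 0.12, adjusted p = 0.494). IFITM1 stood at 0.280 and 0.258 CPM, although the IFITM genes are related in sequence and may share reads, and 32.5% of its exon bases overlap IFITM2. TRIM22, a ubiquitin ligase that restricts HIV-1, was at 20.2, 21.2, 18.8 and 20.4 CPM in CTRL and 15.4, 20.5, 12.5 and 21.1 CPM in miR-155OE. Replicates 1 and 3 of miR-155OE were low and replicates 2 and 4 were at the CTRL level (log2 fold change −0.21, SE 0.15, adjusted p = 0.484). ISG20, an exonuclease for RNA, was at 10.6 and 12.0 CPM on average and did not pass.

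Among the cytosolic effectors SAMD9, which restricts poxviruses, was read at 137, 140, 146 and 111 CPM in CTRL and 138, 148, 106 and 93.4 CPM in miR-155OE. Numbers 1 and 2 were alike in the groups, and numbers 3 and 4 were lower in miR-155OE (log2 fold change −0.13, SE 0.15, adjusted p = 0.675). Its neighbour SAMD9L, on the same strand of chromosome 7, was at 0.0818 RPKM against 18.6 RPKM for SAMD9. PARP14, an ADP-ribosyltransferase, was at 17.0, 15.3, 13.2 and 12.5 CPM and at 13.5, 15.5, 9.80 and 11.2 CPM (log2 fold change −0.22, SE 0.15, adjusted p = 0.482). Its partner gene PARP9 was at 5.07 and 5.17 CPM on average.

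In the remaining group all 6 tested genes had fold changes below 0 and none passed. LGALS3BP, a secreted galectin-binding glycoprotein and the most abundant of the 39 at 27.0 RPKM, was at 108, 103, 93.1 and 96.5 CPM in CTRL and 94.5, 104, 78.1 and 98.1 CPM in miR-155OE. Its interval was among the narrowest, and the log2 fold change was −0.09 (SE 0.09, adjusted p = 0.637). EPSTI1 was at 1.42, 1.94, 1.51 and 1.60 CPM and at 1.29, 1.43, 0.546 and 1.04 CPM, with miR-155OE replicate 2 alone inside the CTRL range. Its log2 fold change was −0.59 (SE 0.28, adjusted p = 0.287). XAF1, which opposes an inhibitor of apoptosis, was lower in 4 of 4 pairs at 0.940 and 0.672 CPM on average, and IFI6, IFI27 and IFI35 were at 0.465 to 1.96 CPM. Of the exon bases of XAF1 38.3% overlap the opposite-strand gene PRAL, which had at most 2 reads.

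The libraries of one group differed from each other in these genes. The median over the 31 tested genes of log2 CPM minus the CTRL mean (pseudocount 0.5 CPM) was 0.09, 0.08, −0.13 and −0.05 in CTRL replicates 1 to 4 and −0.08, 0.10, −0.35 and −0.16 in miR-155OE replicates 1 to 4. The same median over all tested genes lay within −0.01 and 0.01 in every library. Replicate 2 of miR-155OE held the highest value of its group for 20 of the 31 genes and replicate 3 the lowest for 16. In CTRL replicate 3 was the lowest for 19. On the first principal component of all tested genes, which carries 42.6% of the variance, the CTRL libraries scored −22.4, −23.5, −16.6 and −4.79 and the miR-155OE libraries 15.4, −3.46, 33.4 and 21.9. Thus miR-155OE replicate 2, which lies beside CTRL replicate 4 on that axis, had the lowest OASL value and the highest list median of its group, and miR-155OE replicate 3, at the far end, had the highest OASL value and the lowest list median. The part of this axis in the results for these genes was not tested.

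**Figure D4:**
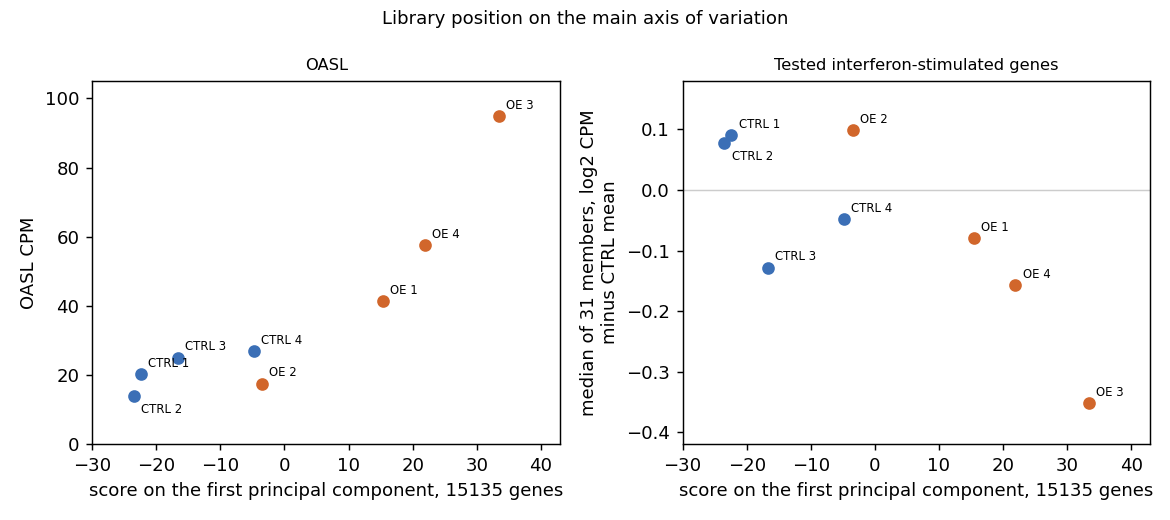
Score of each library on the first principal component of 15135 genes (x axis) against OASL in CPM (left) and against the median shift of the 31 tested interferon-stimulated genes in log2 CPM (right), for 4 CTRL and 4 miR-155OE libraries. OASL is highest and the median shift lowest in miR-155OE replicate 3, and miR-155OE replicate 2 lies near CTRL replicate 4 on the x axis.

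Around these genes, 76 further genes of the interferon pathway were examined by role, of which 59 were tested. On group alone 1 rose and none fell, against 2.17% and 1.05% of all genes, and with the block 6 rose and 3 fell, against 7.43% and 5.17%. The median log2 fold change of the 59 was −0.04. The 34 tested genes under the role of other induced genes leaned lower, as the list did. Their median was −0.11, and 25 of the 34 (73.5%) lay below 0, against 51.3% of all genes. In 4 of 4 same-numbered pairs 11 of the 34 were lower and 5 higher, against 16.9% and 18.8% of all genes. The other roles with more than 1 tested gene had medians from −0.006 (negative regulators) to 0.14 (receptors). The gene called on group alone was LY6E, a lipid-anchored surface protein, which went from 17.9 ± 2.63 CPM to 24.7 ± 1.08 CPM (log2 fold change 0.46, SE 0.10, adjusted p = 0.0438). It lies on the long arm of chromosome 8, where 298 of 351 tested genes had a fold change above 0 and the median was 0.29. Its call was lost without CTRL replicate 1 (adjusted p = 0.103), 3 (0.0870) or 4 (0.0729) and without miR-155OE replicate 1 (0.103), 3 (0.121) or 4 (0.0701).

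Of the signalling genes JAK1 (log2 fold change 0.10), TYK2 (−0.05), IRF3 (−0.05) and MAVS (−0.09) did not pass, nor did IRF1 (−0.30) and SOCS1 (−0.44, adjusted p = 0.0608 with the block). With the block the receptor chain IFNLR1 rose by a log2 fold change of 0.29 (adjusted p = 0.0251), the kinase IKBKE by 0.42 (0.0265), TMEM173, the gene of STING, by 0.59 (0.0465), and SOCS3, a feedback inhibitor of cytokine receptors, by 0.38 (0.0407). TRIM14, a scaffold of RIG-I signalling, rose by 0.42 (0.0278) and LY6E by 0.47 (0.0161). Of the induced genes GBP1 changed most. This GTPase, which attacks intracellular pathogens, was at 3.05, 2.46, 6.61 and 7.15 CPM in CTRL and 1.23, 1.43, 2.11 and 3.26 CPM in miR-155OE. It was lower in 4 of 4 pairs, by a log2 fold change of −1.27 on group alone (SE 0.40, adjusted p = 0.111) and −1.24 with the block (adjusted p = 0.00284). DESeq2 and edgeR with no low-count filter called GBP1 too, against 2.95% and 1.11% of all genes called lower. With 1 library left out on group alone it did not pass (adjusted p = 0.0769 to 0.244). The authors' deposited table gives −1.26 for GBP1 with an adjusted p of 0.0142. The RNA-binding antiviral protein ZC3HAV1 (−0.28, adjusted p = 0.0369) and APOL1 (−0.54, 0.0409) also fell with the block. When numbers were left out of the block in turn, GBP1 kept its call each time (highest adjusted p = 0.0212). IFNLR1, TMEM173, SOCS3 and APOL1 lost theirs each time (adjusted p = 0.0518 to 0.198 over the 4). IKBKE, TRIM14 and ZC3HAV1 kept theirs without number 2 and lost them without number 1, 3 or 4 (0.0562 to 0.153), and LY6E lost its call without number 1 (0.0669) or 4 (0.0594).

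**Figure D5:**
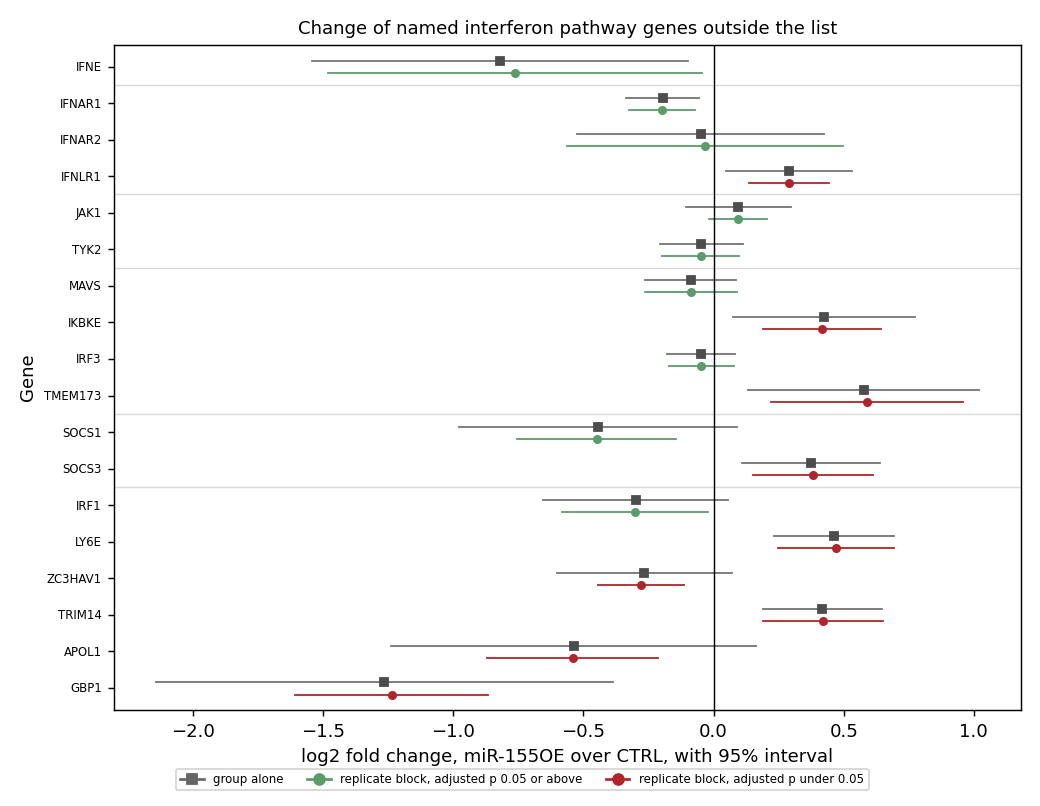
Log2 fold change of miR-155OE over CTRL with its 95% interval for the named pathway genes outside the list, from the fit on group alone (squares) and with the replicate block (circles, red where the adjusted p is under 0.05). GBP1 lies furthest left, and 6 red circles lie right of 0 and 3 left of it.

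Sites for the overexpressed microRNA were rare in the listed genes. Mature miR-155-5p is given below as RefSeq holds it (GRCh38.p14, chr21:25573983-25574006, plus strand, 24 bases), with its seed, bases 2 to 8, in capitals.
miR-155-5p: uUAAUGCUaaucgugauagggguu
Matches to the seed (AGCATTA, AGCATTAA or GCATTAA) were searched in the longest 3′ UTR of each gene in GENCODE release 29. Of the 39 genes 3 held one (CMPK2, XAF1 and EPSTI1), and of the 31 tested 2 did (6.45%), against 18.6% of 12534 tested genes with such a region. Of the 59 tested pathway genes 14 held one (23.7%). These shares take no account of length, although a longer 3′ UTR holds more matches by chance. It ran from 62 (ISG15) to 4509 bases (PARP14) in the tested listed genes. In the tested pathway genes it ran from 53 (PSMB9) to 9976 bases (MAVS). The windows of 28 bases below show the sites of the listed genes that run to 8 bases, and those of the pathway genes SOCS1, a reported target of this microRNA, and IKBKE, whose product the microRNA is reported to target too, with the match in capitals.
XAF1: agaaaaaaaaAGCATTAAaatttatttg
EPSTI1: aatactttgcAGCATTAAgagatcttct
SOCS1: ccgtgcacgcAGCATTAActgggatgcc
IKBKE first: ggcatcctgaAGCATTAgaatgattcca
IKBKE second: ggatgtcgccAGCATTAccttccactgc
The matches lie at chr17:6774046-6774053 on the plus strand (XAF1), chr13:42887446-42887453 on the minus strand (EPSTI1), chr16:11254812-11254819 on the minus strand (SOCS1) and chr1:206496174-206496180 and chr1:206496287-206496293 on the plus strand (IKBKE), all GRCh38. XAF1 and EPSTI1 did not pass either fit. SOCS1 was at 4.57 ± 1.16 and 3.35 ± 0.947 CPM and lower in 4 of 4 pairs, while IKBKE, with 2 matches, was at 8.68 ± 1.30 and 11.7 ± 2.45 CPM and rose with the block. Of the 14 tested pathway genes with a match 11 had a fold change below 0 (median −0.09), and of the 45 without one 25 did (median −0.02). With the block 2 of the 14 with a match rose and none fell, against 7.43% and 5.17% of all genes.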

How the data were processed

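RNA was read in 4 CTRL and 4 miR-155OE libraries. The raw counts deposited by the authors are unnormalised whole numbers for each gene, per the file headers. Alignment and counting tools were HISAT2 2.0.5 and featureCounts 1.5.0-p3 on GRCh38, with DESeq2 also named, per the submitters' processing notes. No strand setting is given, so opposite-strand overlaps cannot be resolved. A second table by the authors holds a normalised signal per library (from the values, counts divided by 1 size factor per library), a log2 fold change and a p-value with its adjusted value. From it only the authors' log2 fold change and adjusted p-value of named genes are quoted.

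Counts were fitted in R 4.3.3 with edgeR 4.0.16 (filterByExpr, 15135 genes kept; TMM; quasi-likelihood F test on group alone; Benjamini-Hochberg over all tested genes at 0.05). SEs and 95% intervals were derived from the fold change and its F statistic and restate the test. CPM uses TMM-scaled totals, RPKM adds the deposited gene length, and 3 reads is the floor for a count of 0. Intervals and floors cover counting error or the spread of these libraries only. Alternatives were the replicate block, RLE factors, no filter, a filter of 1 CPM in 4 libraries, DESeq2 1.42.0, limma-voom (limma 3.58.1) and leaving out libraries or numbers. Python 3.11.15 made the tables.

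The labels number the replicates 1 to 4 without saying what a number shares. Deviations from group means correlated across 8395 genes with a mean of at least 10 CPM (genes are not independent replicates) at 0.622, 0.531, 0.201 and 0.624 for same-numbered libraries, and the numbers were therefore treated as pairs. Number 3 is the weakest pair: CTRL replicate 3 correlated more with miR-155OE replicate 4 (0.229), and miR-155OE replicate 3 more with CTRL replicate 4 (0.439). CTRL replicate 1 also correlated with miR-155OE replicate 2 (0.305), and CTRL replicate 2 with miR-155OE replicate 1 (0.269). Correlations of numbers 1 and 2 with numbers 3 and 4 were all negative (−0.615 to −0.115). Libraries of one group differed by more than sampling noise in all 12 pairs (chi-square per degree of freedom 15.8 to 82.5).

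All 58735 gene IDs matched GENCODE 29. Promoters and the mature microRNA came from RefSeq. The members, the pathway and marker lists and the rule for named genes were chosen with earlier results of these data known. The rule gives values in every library for members past the threshold in either fit, the 5 highest and 3 lowest by level, the 3 with the largest fold change, and the lowest p in each of 8 roles. Values in every library for OAS1, OAS2, IFIH1, GBP1 and the filtered genes were added after they were seen. Some genes of the pathway list as first drawn up are not reported here and stand in none of its counts.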

Additional observations from a re-analysis of the deposited data

Results flagged for a closer look

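The spread within each group was examined for 55 genes of the list and the pathway in 110 groups of 4 libraries, where chance alone marks about 1 in 20 groups. In 2 groups a single library stood apart by Dixon's criterion at its 95% level. OAS2 in CTRL replicate 1, at 3.11 CPM against 1.95 CPM for the next library, lay at a gap of 0.946 of the group's range. JAK1 in miR-155OE replicate 2, at 126 CPM against 152 CPM for the next, lay below the others at a gap of 0.869 of the range.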

How the results depend on the processing

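With the replicate block the count of all called genes went from 488 to 1908, that of interferon-stimulated genes called higher from 0 to 2, and the pathway counts to 6 higher and 3 lower. It changed no other call among the listed genes. DESeq2 called 1223 genes, 1 of the list higher, and 2 pathway genes higher and 1 lower. With no low-count filter 927 of 27858 genes were called, 1 of the list higher and 1 pathway gene lower. RLE factors, the stricter filter and limma-voom kept every count of calls within 1.5 times. Leaving out 1 library gave 125 to 1274 called genes, 0 to 1 of the list higher, none of the list lower, 0 to 2 pathway genes higher and none lower. Leaving 1 number out of the block gave 623 to 2059 (1389 without number 3, 971 without number 4), 1 of the list higher each time and 0 to 1 lower (STAT2), and 0 to 3 pathway genes higher and 1 to 2 lower. The list median stayed between −0.29 and −0.10. Across the settings of the 32 named tested genes 531 values kept direction and side of the threshold, 29 passed it newly, 8 no longer passed (all LY6E) and 5 changed sign: IRF7 at −0.017 without CTRL replicate 4 (range −0.017 to 0.16 over single libraries left out), and IFNAR2 at 0.065 without CTRL replicate 1 and 0.02 without CTRL replicate 2 (range −0.15 to 0.065), and at 0.10 and 0.080 in the block without numbers 1 and 2. The cause was not tested. Depth limits the 8 filtered genes, which the fits on 15135 genes left out. With no low-count filter they were fitted, and none of them was called.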
